A study of Mus musculus with 24 samples.

Results

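The MHC class I antigen presentation genes are the genes whose products cut intracellular proteins into peptides, carry the peptides into the endoplasmic reticulum and load them onto class I molecules for display at the cell surface. All array probes whose gene name in the scanner files was Tap1, Tap2, Tapbp, B2m, Psmb8, Psmb9, Psmb10, Psme1, H2-K1 or H2-D1 were taken. These are 12 probes for 10 genes, of 55681 probes and 34844 gene names on the array.

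Class I molecules are made of a heavy chain, such as those encoded by H2-K1 and H2-D1, bound to beta-2-microglobulin, the product of B2m. Interferons exchange the catalytic subunits of the proteasome for the immunoproteasome subunits Psmb8, Psmb9 and Psmb10, and also raise the activator subunit Psme1, the peptide transporter formed by Tap1 and Tap2, and tapasin, the product of Tapbp, which holds the transporter and the class I molecule together. Cardiomyocytes are known for low surface levels of class I molecules, which rise with interferon or tissue injury.

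The samples were RNA of cardiomyocytes that had been isolated live from mouse hearts on a Langendorff apparatus, a perfusion device, and each was hybridised to a 1-colour Agilent array. The 8 groups, with 3 arrays each, combine genotype (wild type, or Top2b-/-, a cardiac-specific conditional deletion of the gene of DNA topoisomerase II beta), injection (intraperitoneal doxorubicin at 25 mg/kg, or PBS) and the time until the heart was taken (16 h or 72 h). Doxorubicin is an anthracycline drug that poisons type II topoisomerases. All mice are labelled male, 6 weeks old and of mixed 129SvEv/C57BL/6 background. The labels name neither the Cre line nor the promoter that drove the deletion, nor the deleted exon, and whether the arrays of a group stem from different animals is not said. The p-values therefore cover the spread between these arrays alone, which may be technical. The study compared how the genotypes respond to doxorubicin.

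Levels below are log2 signal minus the 75th percentile of that array's log2 signals, so 0 is the level of a spot at that percentile, and levels of different genes cannot be compared. The percentile itself ranged from a signal of 146 to 282 over the 24 arrays. The highest Top2b level of the Top2b-deleted arrays lay below the lowest of the wild-type arrays at both times, with means of 2.99 ± 0.28 against 4.20 ± 0.16 (SD, n = 6 each, exact permutation test, two-sided p = 0.00216) at 16 h and 2.51 ± 0.34 against 3.43 ± 0.17 (n = 6 each, exact permutation test, two-sided p = 0.00216) at 72 h. Genotype is taken from the sample titles. One label field gives the opposite genotype for 4 arrays of 16 h, which are replicate 3 of both PBS groups and replicate 1 of both doxorubicin groups. Ddx3y, a gene of the Y chromosome, reached well above background on only 7 of the 24 arrays, among them all 3 wild-type PBS arrays and 1 wild-type doxorubicin array (replicate 1) of 16 h, although the labels give all mice as male. At 16 h slide 1 held all 6 wild-type arrays and Top2b-deleted PBS replicates 1 and 2, and slide 2 held the other Top2b-deleted arrays. At 72 h slide 1 held replicates 2 and 3 of each group and slide 2 held replicate 4, so the times lie on different slides and were not tested against each other. All 12 cardiomyocyte markers examined, such as Myh6 and Tnnt2, were well above background on every array.

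Promoter sequences are shown for the members whose level rose in wild-type cells at 16 h, because class I genes share known control elements there and these genes moved together. They are the bases before the transcription start in RefSeq's mouse annotation (GRCm38.p6), 5′ to 3′ on the strand of the gene. The B2m window is chr2:122147437-122147686 on the plus strand, the H2-K1 window chr17:34000348-34000597 on the minus strand (the farther upstream of 2 RefSeq starts), the H2-D1 window chr17:35262844-35263093 on the plus strand and the Psmb8 window chr17:34197945-34198194 on the plus strand, each of 250 bases. Tap1 and Psmb9 start 225 bases apart on opposite strands, and the whole interval chr17:34187331-34187555 is shown on the strand of Tap1. Capitals mark every match to 1 of 6 motifs searched on both strands.
B2m: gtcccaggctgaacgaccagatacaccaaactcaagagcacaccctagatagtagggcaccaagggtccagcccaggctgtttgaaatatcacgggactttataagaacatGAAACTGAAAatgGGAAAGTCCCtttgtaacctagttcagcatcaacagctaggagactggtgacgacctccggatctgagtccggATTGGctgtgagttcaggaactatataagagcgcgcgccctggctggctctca
H2-K1: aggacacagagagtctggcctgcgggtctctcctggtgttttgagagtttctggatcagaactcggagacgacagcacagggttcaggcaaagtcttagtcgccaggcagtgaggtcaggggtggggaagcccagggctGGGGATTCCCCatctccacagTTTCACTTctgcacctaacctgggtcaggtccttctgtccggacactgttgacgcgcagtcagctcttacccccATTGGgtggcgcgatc
H2-D1: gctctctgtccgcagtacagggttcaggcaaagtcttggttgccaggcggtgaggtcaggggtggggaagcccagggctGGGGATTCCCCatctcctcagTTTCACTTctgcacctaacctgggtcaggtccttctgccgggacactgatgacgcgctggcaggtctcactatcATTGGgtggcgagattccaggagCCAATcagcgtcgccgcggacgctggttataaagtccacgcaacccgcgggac
Tap1 and Psmb9: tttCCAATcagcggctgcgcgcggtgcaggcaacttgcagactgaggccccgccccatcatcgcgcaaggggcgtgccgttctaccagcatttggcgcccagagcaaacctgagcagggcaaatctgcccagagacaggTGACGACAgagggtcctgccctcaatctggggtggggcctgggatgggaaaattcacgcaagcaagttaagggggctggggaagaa
Psmb8: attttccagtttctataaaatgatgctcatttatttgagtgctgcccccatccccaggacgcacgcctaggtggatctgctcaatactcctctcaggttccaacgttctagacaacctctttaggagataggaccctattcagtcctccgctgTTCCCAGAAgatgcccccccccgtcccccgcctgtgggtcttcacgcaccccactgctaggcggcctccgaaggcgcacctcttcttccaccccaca

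The motifs were an interferon response element (GAAANNGAAA), the core bound by interferon regulatory factors (AANNGAAA, which lies inside every match of the former), a gamma-activated site (TTCNNNGAA), the CCAAT box (CCAAT), the X2 box (TGACGNNA) and the kappa B consensus. RefSeq entries were matched for 9 of the 10 members, all except Tap2, which gave 8 windows because Tap1 and Psmb9 share one. The interferon response element was found in 1 of the 8 windows, that of B2m, 139 bases before the start, and in 2.98% of 32851 windows of 250 bases in the RefSeq table. The B2m window also held a kappa B match 126 bases and a CCAAT match 53 bases before the start. The regulatory factor core was found in the windows of B2m, H2-K1 and H2-D1 (21.3% of all windows), and so was the kappa B consensus (7.25% of all windows). In B2m the core match, 137 bases before the start, is part of the interferon response element already counted. The 2 heavy chain windows resembled each other, with 166 of 190 compared bases identical. The Psmb8 window held a gamma-activated site 97 bases before the start (7.02% of all windows). The interval between Tap1 and Psmb9 held a CCAAT match 222 bases and an X2 match 86 bases before the Tap1 start (31.6% and 5.31% of windows of that length). The CCAAT box stood in 5 of the 8 windows, Tapbp included, and in 33.8% of all windows. The windows of Psmb10 and Psme1 held no match to any of the 6. A match is a description of letters and was not tested as a binding site.

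In wild-type cells 6 of the 10 genes rose 16 h after doxorubicin and 0 fell. The 6 were Tap1, the immunoproteasome subunits Psmb8 and Psmb9, B2m and both heavy chain genes. Over all 18750 genes tested at 16 h, 27.8% passed the same threshold, 13.7% higher and 14.1% lower. The threshold throughout is an adjusted p of 0.05 (limma, Benjamini-Hochberg over all genes tested at that time). The median log2 change was 1.14 over the 10 members and -0.02 over all genes. The same 6 genes were those whose doxorubicin arrays all lay above all PBS arrays, which held for 18.2% of all genes. In RNA of whole preparations, more RNA per cell and more cells of a type that carries the RNA cannot be told apart.

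Among the genes of peptide transport, Tap1, the first subunit of the transporter, changed most. Its level was -2.92, -3.79 and -3.51 on wild-type PBS replicates 1, 2 and 3, of which only replicate 1 was well above background, and 0.79, 1.0 and -0.36 after doxorubicin. The groups were far apart, and doxorubicin replicate 3 was the lowest of its group. The change was 3.88 ± 0.38 (SE) on the log2 scale (limma, adjusted p = 0.000108). With normexp background correction it was 2.04. Tap2, the partner subunit, was at 3.19, 3.03 and 3.18 after PBS and 2.73, 3.58 and 3.18 after doxorubicin, so that the doxorubicin arrays spread on both sides of the PBS arrays (0.03 ± 0.19, adjusted p = 0.918). Tapbp was at 2.57, 2.58 and 2.59 after PBS and at 2.91, 2.76 and 2.44 after doxorubicin (0.13 ± 0.12, adjusted p = 0.477). The PBS values of Tapbp were close together and the doxorubicin arrays again lay on both sides of them.

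Among the genes of the proteasome, Psmb8, which replaces the constitutive subunit Psmb5, was at -0.14, -1.22 and -0.62 after PBS and at 0.71, 1.67 and -0.04 after doxorubicin. The highest PBS array and the lowest doxorubicin array lay close to each other, but the groups did not overlap. The change was 1.44 ± 0.40, or 2.71-fold (adjusted p = 0.0234). Psmb9, which replaces Psmb6, was at 0.19, -1.06 and -0.40 after PBS and at 1.20, 2.18 and 0.63 after doxorubicin, a change of 1.76 ± 0.40 or 3.38-fold (adjusted p = 0.0095). For both genes PBS replicate 2 was the lowest array and doxorubicin replicate 2 the highest. Psmb10, which replaces Psmb7, was at 5.33, 5.67 and 5.74 after PBS and at 5.84, 5.89 and 5.45 after doxorubicin, with overlapping groups (0.15 ± 0.16, adjusted p = 0.542). Psme1, a subunit of the ring that opens the proteasome, was at 5.70, 5.74 and 5.80 after PBS and at 5.90, 5.24 and 5.08 after doxorubicin (-0.34 ± 0.19, adjusted p = 0.217). Doxorubicin replicate 1 stood above all PBS arrays for Psme1, and the other two stood below them.

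Among the genes of the class I molecule itself, B2m, the shared light chain, was at 4.11, 3.35 and 3.94 after PBS and at 5.25, 5.50 and 4.56 after doxorubicin. The change was 1.30 ± 0.27, or 2.47-fold (adjusted p = 0.00572). H2-K1, a classical heavy chain, was at 3.94, 3.12 and 3.62 after PBS and at 4.69, 5.0 and 4.45 after doxorubicin, a change of 1.15 ± 0.23 or 2.22-fold (adjusted p = 0.00459). The doxorubicin arrays of both genes all lay above the PBS arrays, and PBS replicate 2 was again the lowest. H2-D1, the other classical heavy chain here, was at 3.18, 2.30 and 2.72 after PBS and at 4.04, 4.27 and 3.25 after doxorubicin, which is 1.12 ± 0.28 or 2.17-fold (adjusted p = 0.0142). Its lowest doxorubicin array was only just above its highest PBS array.

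**Figure D1:**
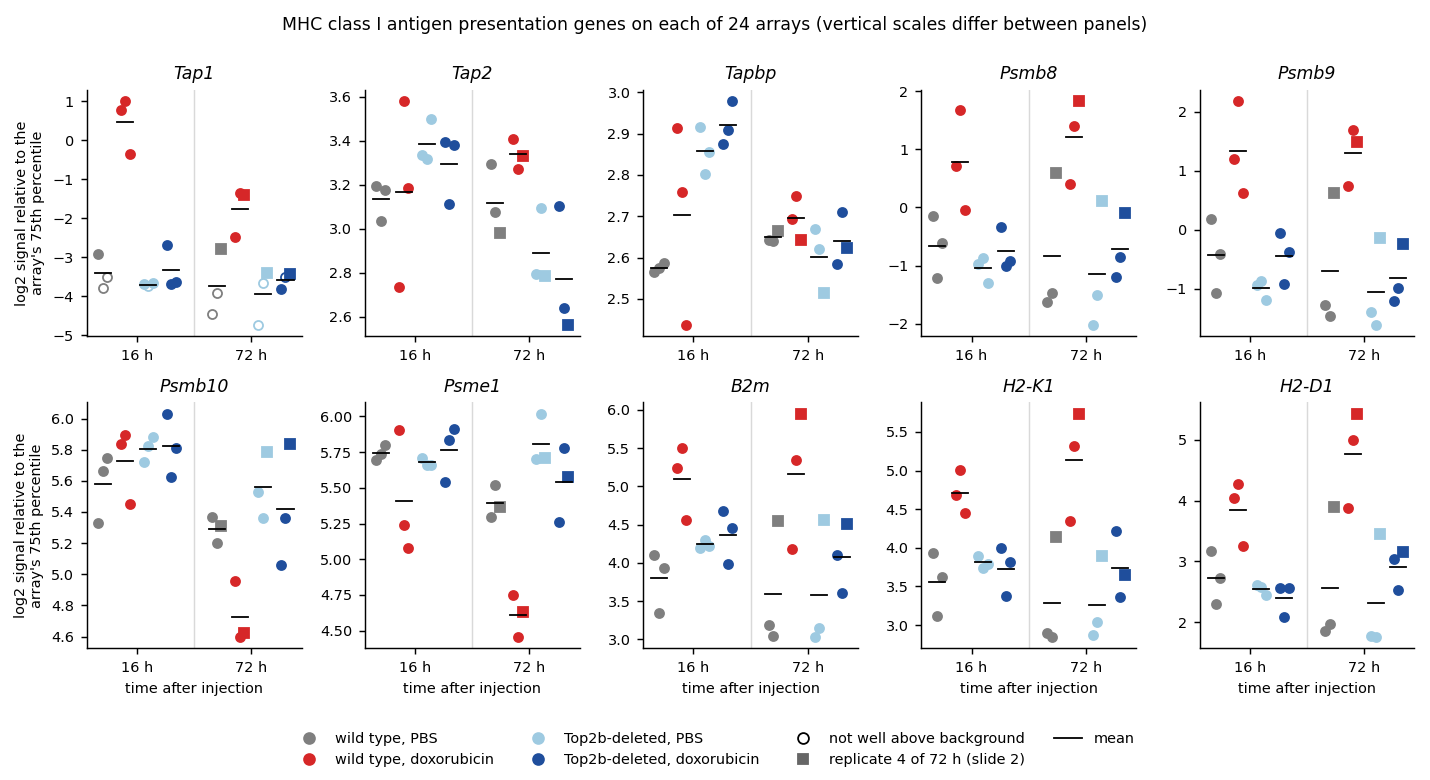
Level of each gene on each of the 24 arrays, as log2 signal relative to the array's 75th percentile (vertical scales differ between panels), by time after injection, with genotype and treatment by colour and the group mean as a line. Red points (wild type, doxorubicin) lie above the grey ones at 16 h for Tap1, Psmb8, Psmb9, B2m, H2-K1 and H2-D1, squares mark replicate 4 of 72 h, and open points are arrays where the probe was not well above background.

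The call on Tap1 held in all 20 alternative fits that tested it, with changes from 2.04 to 4.36 and an adjusted p of at most 0.00702. The alternative that kept only probes above background on all arrays left Tap1 out. Without the 4 arrays of conflicting labels, which leaves 2 arrays in each group, Tap1 (3.67, adjusted p = 0.00702) was the 1 gene still higher, Psme1 was lower (-0.56, adjusted p = 0.0266), and 19.1% of all genes were called. The changes of the other 5 genes there were 1.30 for B2m (adjusted p = 0.0618), 1.20 for H2-K1 (0.0516), 1.84 for Psmb9 (0.0786), 1.49 for Psmb8 (0.122) and 1.02 for H2-D1 (0.135). The call on Psmb8 was lost without PBS replicate 2 (1.16, adjusted p = 0.0899), without PBS replicate 3 (1.46, adjusted p = 0.0582) and without doxorubicin replicate 2 (0.99, adjusted p = 0.0667). The call on H2-D1 was lost without PBS replicate 2 (0.90, adjusted p = 0.0582) or doxorubicin replicate 2 (0.91, adjusted p = 0.0509). Without doxorubicin replicate 1, Psme1 passed as lower (-0.59, adjusted p = 0.00722). All 6 stayed higher with Y-linked transcripts as a covariate. On wild-type arrays with Y-linked transcripts alone, where the doxorubicin group is the single replicate 1 and is assumed to vary like the other groups, all 6 were higher and so was Tapbp (0.34, adjusted p = 0.0285), beside 42% of all genes.

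In Top2b-deleted cells 0 of the 10 genes passed the threshold 16 h after doxorubicin, as did 0% of all genes (limma), and 4.22% of all genes had an unadjusted p under 0.05. None of the 10 had an unadjusted p under that value, and the groups of all 10 overlapped, whereas doxorubicin lay wholly above PBS for 9.8% and wholly below it for 7.96% of all genes. The member median was 0.07 and that of all genes 0.01. Tap1 was at -3.69, -3.73 and -3.67 after PBS and at -2.67, -3.68 and -3.62 after doxorubicin, a change of 0.37 ± 0.38 (adjusted p = 0.9999). Doxorubicin replicate 1, an array of conflicting label, stood alone above the rest. Psmb9 was at -0.93, -0.86 and -1.18 after PBS and at -0.05, -0.91 and -0.38 after doxorubicin (0.54 ± 0.40), and Psmb8 at -0.97, -0.87 and -1.30 and then -0.34, -1.0 and -0.93 (0.29 ± 0.40). Replicate 1 was the highest doxorubicin array for these immunoproteasome genes too. B2m was at 4.19, 4.30 and 4.23 after PBS and at 4.67, 3.99 and 4.45 after doxorubicin (0.13 ± 0.27). The heavy chains had mean levels slightly below those after PBS, with H2-K1 at 3.90, 3.74 and 3.80 and then 4.0, 3.38 and 3.82 (-0.08 ± 0.23), and H2-D1 at 2.61, 2.58 and 2.45 and then 2.56, 2.09 and 2.56 (-0.15 ± 0.28). The remaining 4 genes had PBS and doxorubicin means of 3.38 and 3.30 (Tap2), 2.86 and 2.92 (Tapbp), 5.81 and 5.82 (Psmb10) and 5.68 and 5.76 (Psme1), each with 3 arrays per group and SDs of 0.03 to 0.21. An adjusted p above the threshold does not show that these levels were equal.

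The difference between the genotypes' responses at 16 h, tested as the Top2b-deleted change minus the wild-type change, was called for Tap1 (-3.51 ± 0.53, adjusted p = 0.00387) and H2-K1 (-1.24 ± 0.33, adjusted p = 0.036), both lower in the Top2b-deleted cells. Of all genes 11.4% were called, 6.17% with a higher and 5.27% with a lower response in the Top2b-deleted cells. The other genes that rose in wild type had differences of similar size that did not pass, with -1.26 ± 0.40 for H2-D1 (adjusted p = 0.0648), -1.17 ± 0.38 for B2m (adjusted p = 0.073), -1.22 ± 0.57 for Psmb9 (adjusted p = 0.192) and -1.15 ± 0.57 for Psmb8 (adjusted p = 0.215). The 4 genes with no change called in either genotype had differences of -0.12 (Tap2), -0.07 (Tapbp), -0.13 (Psmb10) and 0.42 (Psme1), with adjusted p from 0.339 to 0.849. The difference in Tap1 was called in all 24 alternatives that tested it, at -4.23 to -1.95. The slides held the genotypes unequally, and with the slide as a block the difference was called for 1 gene, Tap1, beside 1.99% of all genes, while H2-K1 was at -1.22 (adjusted p = 0.177). The call on H2-K1 was also lost without the arrays of conflicting label (-1.42, adjusted p = 0.12) and on leaving out any one of replicates 2 and 3 of wild-type PBS, replicate 2 of wild-type doxorubicin, replicates 1, 2 and 3 of Top2b-deleted PBS, or replicates 2 and 3 of Top2b-deleted doxorubicin, at -1.28 to -1.02 (adjusted p = 0.0671 to 0.086). Without wild-type doxorubicin replicate 3, the lowest of its group for all 6 rising genes, 5 genes had a lower response, with B2m (-1.44, adjusted p = 0.0119), Psmb8 (-1.56, adjusted p = 0.0435) and H2-D1 (-1.57, adjusted p = 0.00759) added, beside 25.3% of all genes.

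**Figure D2:**
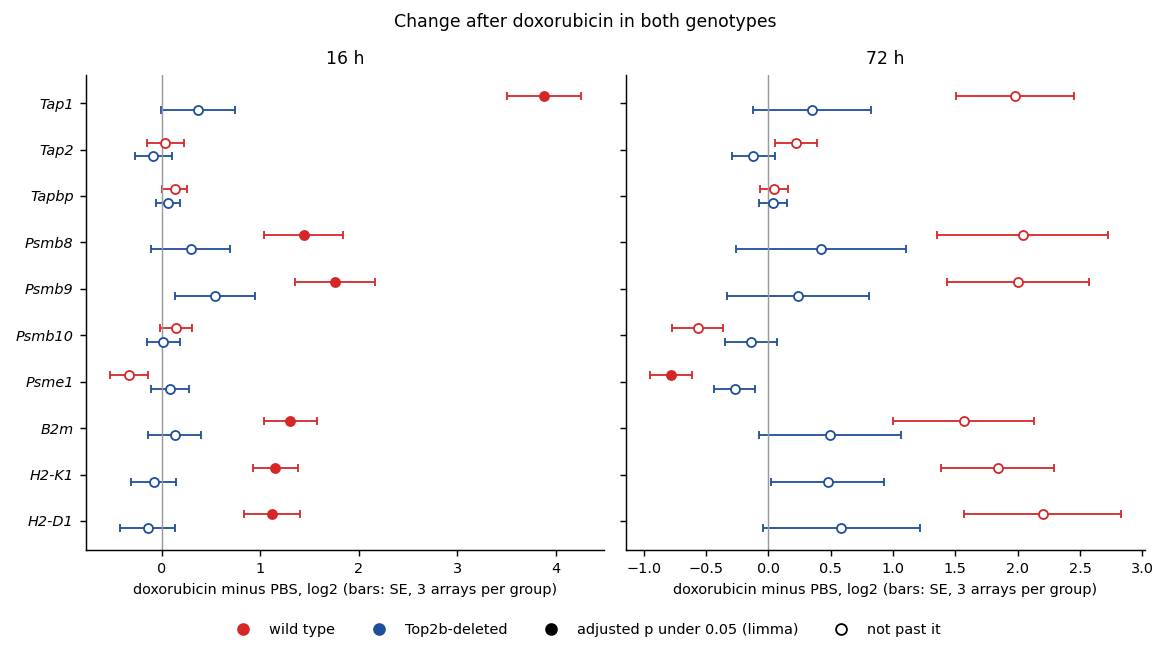
Change after doxorubicin (doxorubicin minus PBS, log2, bars are the SE) for each gene in wild-type (red) and Top2b-deleted (blue) cells at 16 h and 72 h, with 3 arrays per group and filled points where the adjusted p was under 0.05. At 16 h the 6 filled red points run from 1.12 to 3.88, and the blue points of the same genes lie between -0.15 and 0.54.

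After PBS the genotypes differed in 0 of the 10 genes at 16 h, when 12.5% of all genes were called. Tapbp had the smallest p (0.28 higher in Top2b-deleted cells, unadjusted p = 0.0452, adjusted p = 0.167), and 28% of all genes had an unadjusted p under 0.05. The Top2b-deleted PBS arrays all lay above the wild-type ones for Tapbp, Tap2 and B2m, as was so for 24.1% of all genes. Of these 6 arrays 5 lay on slide 1, and Top2b-deleted replicate 3 lay on slide 2. At 72 h 0 of the 10 were called again (2.15% of all genes), with Psme1 higher by 0.41 (unadjusted p = 0.0316, adjusted p = 0.315) and its groups not overlapping, as for 11.2% of all genes. An unadjusted p under 0.05 was found for 12.7% of all genes there.

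At 72 h the levels of the rising genes were again higher in wild-type doxorubicin cells, but the arrays spread more and 1 gene passed, Psme1, which fell. Its level was 5.30, 5.52 and 5.37 on PBS replicates 2, 3 and 4 and 4.75, 4.45 and 4.63 after doxorubicin, with no overlap. The change was -0.78 ± 0.17, or 1.72-fold lower (adjusted p = 0.0432), beside 2.69% of all 19669 genes called, 0.946% higher and 1.75% lower. The call on Psme1 was lost without PBS replicate 2 or 3 or doxorubicin replicate 3 or 4, at -0.83 to -0.71 (adjusted p = 0.0979 to 0.159). Psmb10 had a like pattern, at 5.37, 5.20 and 5.31 after PBS and 4.96, 4.60 and 4.62 after doxorubicin, also without overlap (-0.57 ± 0.20, adjusted p = 0.128). Groups without overlap on the lower side were found for 16.9% of all genes.

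The other proteasome genes went the opposite way. Psmb8 was at -1.62, -1.47 and 0.59 after PBS and at 0.40, 1.39 and 1.82 after doxorubicin (2.04 ± 0.68, adjusted p = 0.108). Psmb9 was at -1.27, -1.45 and 0.63 after PBS and at 0.74, 1.69 and 1.48 after doxorubicin (2.00 ± 0.57, adjusted p = 0.0749). In both genes PBS replicate 4 stood about as high as the lowest doxorubicin array, while PBS replicates 2 and 3 were far below. Tap1 was at -4.46, -3.92 and -2.79 after PBS, well above background on replicate 4 alone, and at -2.48, -1.35 and -1.41 after doxorubicin (1.98 ± 0.47, adjusted p = 0.0532). At 72 h Tap1 passed the filter on dim probes through the wild-type doxorubicin group alone, the group where it is high, so its p-values and calls at that time are a description and support nothing. Its doxorubicin arrays all lay above the PBS arrays, as did those of Psmb9 and H2-K1, and 9.05% of all genes had that order.

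B2m was at 3.19, 3.05 and 4.55 after PBS and at 4.18, 5.35 and 5.95 after doxorubicin (1.57 ± 0.57, adjusted p = 0.128). H2-K1 was at 2.89, 2.84 and 4.14 after PBS and at 4.34, 5.31 and 5.74 after doxorubicin (1.84 ± 0.45, adjusted p = 0.0572). H2-D1 was at 1.85, 1.97 and 3.89 after PBS and at 3.87, 5.0 and 5.43 after doxorubicin (2.20 ± 0.63, adjusted p = 0.0759). For B2m, Psmb8 and H2-D1 PBS replicate 4 reached above the lowest doxorubicin array, replicate 2, so those groups overlapped. Tap2 (0.22 ± 0.17, adjusted p = 0.465) and Tapbp (0.05 ± 0.11, adjusted p = 0.843) showed no called change. The median log2 change was 1.70 over the 10 members and -0.08 over all genes.

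PBS replicate 4 was the highest array of its group, in both genotypes, for Tap1, Psmb8, Psmb9, B2m, H2-K1 and H2-D1, and it was the array hybridised on slide 2. With the slide as a block, 7 of the 10 genes were called in wild type at 72 h, 6 higher and 1 lower, beside 13.4% of all genes (5.54% higher, 7.89% lower). The 6 were the genes that rose at 16 h, Tap1 (adjusted p = 0.0164), Psmb8 (0.0128), Psmb9 (0.0137), B2m (0.0162), H2-K1 (0.0163) and H2-D1 (0.0128), and Psme1 was again lower (0.0222). Within slide 1 alone, with 2 arrays per group, 5 genes were higher beside 3.99% of all genes, with changes of 2.27 for Tap1, 2.44 for Psmb8, 2.58 for Psmb9, 1.96 for H2-K1 and 2.53 for H2-D1. B2m was at 1.65 there (adjusted p = 0.0576) and Psme1 at -0.81 (adjusted p = 0.099). Slide 2 holds 1 array per group, which gives no spread of its own. Without wild-type PBS replicate 4, 6 genes were called, 5 of them higher (Tap1 2.44, Psmb8 2.75, Psmb9 2.66, H2-K1 2.26, H2-D1 2.86), beside 7.89% of all genes. Without doxorubicin replicate 2, 4 genes were called beside 6.25% of all genes, with Tap1 (2.34), H2-K1 (2.23) and H2-D1 (2.65) higher and Psme1 lower.

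In Top2b-deleted cells at 72 h 0 of the 10 genes passed (limma, 0% of all genes called and 2.18% at an unadjusted p under 0.05), and none of the 10 had an unadjusted p under 0.05. Tap1 was at -4.73, -3.67 and -3.39 after PBS and at -3.80, -3.51 and -3.43 after doxorubicin (0.35 ± 0.47). Psmb8 was at -2.02, -1.50 and 0.10 and then at -1.19, -0.86 and -0.10 (0.42 ± 0.68), and Psmb9 at -1.39, -1.61 and -0.14 and then at -1.20, -0.99 and -0.24 (0.24 ± 0.57). In each of these genes PBS replicate 4 lay above the highest doxorubicin array. B2m was at 3.03, 3.15 and 4.56 and then at 4.10, 3.61 and 4.51 (0.49 ± 0.57). The heavy chains were at 2.87, 3.04 and 3.89 and then at 4.21, 3.36 and 3.64 (H2-K1, 0.47 ± 0.45), and at 1.76, 1.75 and 3.45 and then at 3.03, 2.53 and 3.16 (H2-D1, 0.59 ± 0.63). All these groups overlapped, as did those of the remaining 4 genes, while 2.87% of all genes lay wholly higher and 4.25% wholly lower after doxorubicin. The remaining genes changed by -0.27 (Psme1), -0.14 (Psmb10), -0.12 (Tap2) and 0.04 (Tapbp). The difference between the genotypes' responses at 72 h was called for 0 of the 10 (limma, 0% of all genes, 7.06% at an unadjusted p under 0.05), and 1 member, Tap1, had an unadjusted p under 0.05 (-1.63 ± 0.67, unadjusted p = 0.0339, adjusted p = 0.697).

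The other genes of the pathway were counted from lists. Of 25 further class I genes, 18 were measured well enough at 16 h. Beside 13.7% higher and 14.1% lower of all genes, 12 of the 18 rose and 1 fell in wild type after doxorubicin, with a median of 1.11. They include H2-T10 (1.80 ± 0.39, adjusted p = 0.00672), H2-Q2 (1.32 ± 0.28, adjusted p = 0.00628) and H2-Bl (1.08 ± 0.23, adjusted p = 0.00631), nonclassical or class I-like heavy chains. The gene that fell was Fcgrt (-0.74 ± 0.12, adjusted p = 0.00145), the neonatal Fc receptor, which binds antibodies rather than peptides. In 5 of the 18 the response was lower in Top2b-deleted than in wild-type cells, H2-T10 (-1.92), H2-Q2 (-1.39) and H2-Bl (-1.35) among them, and in 1, Fcgrt, it was higher (0.60). Of all genes 5.27% were called lower and 6.17% higher in that comparison. After PBS at 16 h H2-T10 was already called higher, and Fcgrt lower, in Top2b-deleted than in wild-type cells (values under Other observations). The differences in response of H2-T10 and Fcgrt therefore include unequal PBS levels. Probes of these related genes can bind each other's transcripts, so their values are not independent of H2-K1 and H2-D1. At 72 h 2 of the 18 were called higher in wild type, H2-T10 (1.74, adjusted p = 0.049) and, picked after its value was seen, H2-Q8 (1.70, adjusted p = 0.0362), with a median of 1.76. Of all genes 0.946% were called higher there.

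Among 15 genes of peptide loading and trimming, 3 rose and 3 fell in wild type at 16 h, with a median of -0.18. Over all genes 13.7% were called higher and 14.1% lower there. The counts of the 9 activation and assembly genes below do not stand out from these shares. Tapbpl, a tapasin relative that edits peptides, rose by 1.08 ± 0.19 (adjusted p = 0.00223), and its response was lower in Top2b-deleted cells (-0.99 ± 0.26, adjusted p = 0.0376). Abcb9, a lysosomal peptide transporter related to the Tap genes, fell (-1.45 ± 0.18, adjusted p = 0.000401), as did the chaperones Hspa5 (-0.66 ± 0.14, adjusted p = 0.00728) and Pdia3 (-0.64 ± 0.16, adjusted p = 0.0126). Among the 14 genes of the constitutive proteasome core, 0 rose and 1 fell, Psmb2 (-0.68 ± 0.17, adjusted p = 0.0134), with a median of -0.01. The subunits that Psmb8, Psmb9 and Psmb10 replace were at -0.10 (Psmb5), -0.01 (Psmb6) and -0.32 (Psmb7), with adjusted p of 0.505, 0.976 and 0.0971; Psmb5 and Psmb6 were picked after their values were seen. Of 9 genes of proteasome activation and assembly, Psmf1, an inhibitor of the proteasome, rose (0.58 ± 0.13, adjusted p = 0.00768) and Psmg1, an assembly chaperone, fell (-1.13 ± 0.25, adjusted p = 0.0077). At 72 h none of the 15 loading genes and none of the 9 activation genes was called in wild type, and 1 core gene was lower, Psma4 (-0.80, adjusted p = 0.049), which was measured on 2 of the 3 doxorubicin arrays.

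Of 20 interferon ligands and receptors, 11 were measured at 16 h, and the ligands Ifng, Ifnb1 and Tnf were among the 9 that were not. In wild type 1 of the 11 rose and 2 fell. These counts do not stand out from all genes, of which 13.7% were called higher and 14.1% lower. The tumour necrosis factor receptor Tnfrsf1a rose in wild type (1.09 ± 0.35, adjusted p = 0.0416), while the interferon gamma receptor chain Ifngr2 (-0.87 ± 0.16, adjusted p = 0.00279) and the interleukin 10 receptor chain Il10rb (-0.93 ± 0.12, adjusted p = 0.00049) fell. Among 24 measured regulators of class I transcription, 10 rose and 4 fell, beside the same shares of all genes. Irf7, an interferon regulatory factor, rose by 3.21 ± 0.47 (adjusted p = 0.00101) and Irf9, the DNA-binding part of the interferon-stimulated complex, by 1.74 ± 0.27 (adjusted p = 0.00138). Of the NF-kappa B subunits, Rela rose (0.77 ± 0.11, adjusted p = 0.00106) and Relb fell (-1.44 ± 0.12, adjusted p = 6.77e-05). Nlrc5, the class I transactivator, was well above background on 1 PBS array and 3 doxorubicin arrays, with a change of 3.63 ± 0.75 (adjusted p = 0.00561); it was picked after its value was seen. The response of Irf7 was lower in Top2b-deleted cells (-2.99 ± 0.67, adjusted p = 0.02). For Nlrc5 the difference of responses did not pass (-1.57 ± 1.06, adjusted p = 0.368). In Top2b-deleted cells at 16 h Nlrc5 was well above background on every doxorubicin array and on no PBS array. Its means there were -2.83 and -4.89, at least 2.03-fold higher after doxorubicin, and the change was not called (limma, adjusted p = 0.9999). Irf7 was also called higher in wild type at 72 h (1.52 ± 0.29, adjusted p = 0.0308). Of the 14 genes of class II presentation, 8 were measured at 16 h and 0 were called in either genotype or in the difference (limma).

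**Figure D3:**
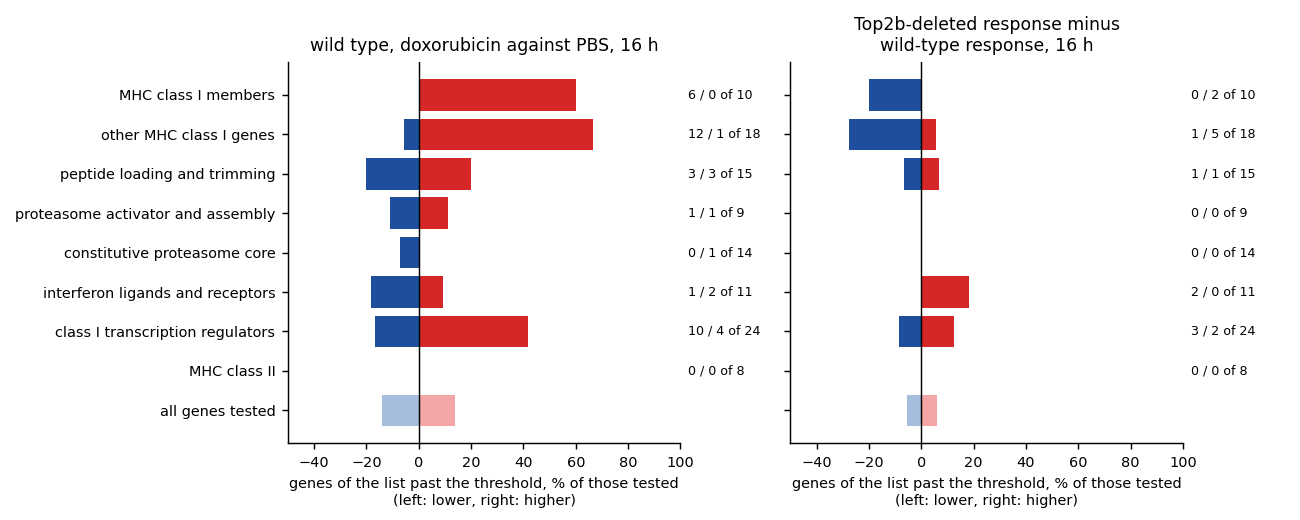
Share of each gene list called higher (right, red) or lower (left, blue), as a percentage of the genes tested, for doxorubicin in wild type and for the difference of responses at 16 h, with the counts higher / lower of tested beside each bar and all genes tested in pale colours. The 10 members (6 higher) and the 18 other class I genes (12 higher) have longer bars to the right in wild type than all genes (13.7%), and the constitutive proteasome core has 0 higher of 14.

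Markers of other cell types were set beside these changes. Of the neutrophil markers, 4 were tested at 16 h and 3 rose in wild type, with S100a9 at 4.20 ± 0.72 (adjusted p = 0.00223) and Ly6g at 1.85 ± 0.29 (adjusted p = 0.00141), while Csf3r was at -0.02. The other riser, S100a8, was above background on no array of 16 h outside the wild-type doxorubicin group. It passed the filter on dim probes through that group alone, where it is high, so its call supports nothing. Retnlg, Cxcr2, Mmp8, Mmp9, Camp and Ngp were not well above background on any wild-type array of 16 h. The summed level of the 10 neutrophil markers, nearly all of it Csf3r, was 80.6 to 82.6 after PBS and 66.8 to 99.7 after doxorubicin. At 72 h 3 of 6 were higher in wild type, S100a9 by 6.44 ± 0.87 (adjusted p = 0.0181). Of the 6, S100a8 and Retnlg were above background on no array of 72 h outside the wild-type doxorubicin group. They too passed the filter through that group alone, so their tests support nothing. Of 12 endothelial markers, all above background on every array, 1 rose and 2 fell in wild type at 16 h. Their summed levels in wild type were 65.7 to 97.1 after PBS and 70.0 to 110 after doxorubicin. In Top2b-deleted cells they were 52.0 to 66.1 after PBS and 46.4 to 50.6 after doxorubicin, without overlap. In those cells 0 of the 12 were called (limma) and 0 were above 0, with a median change of -0.28. At 72 h 0 of the 12 were called (limma), 11 were above 0, and their median was 1.35. The summed endothelial level in wild type at 72 h was 57.8 to 161 after PBS and 121 to 177 after doxorubicin, and replicate 4 was the high PBS array, as for the class I genes. The median log2 level of the endothelial markers was 0.37, 0.25 and 2.89 on wild-type PBS replicates 2, 3 and 4 of 72 h. Macrophage markers rose in 0 and fell in 1 of 12 at 16 h, with summed levels of 88.5 to 96.1 after PBS and 62.2 to 94.5 after doxorubicin in wild type, mostly the signal of Itgam, and the median change of the 12 was 0.27. At 72 h 0 of 11 were called in wild type (limma), 10 were above 0 and their median change was 1.0. The median difference of the genotypes' responses there was -1.21 with 0 of 11 above 0. It was -1.34 for the endothelial markers with 1 of 12 above 0, beside -1.22 for the members. At 16 h that median was -0.95 for the macrophage markers, with 1 of 12 above 0 and 1 called lower, beside -1.16 for the members. It was -1.66 for the neutrophil markers, with 1 of 4 above 0 and 1 called lower. For the endothelial markers it was -0.33, with 5 of 12 above 0. Of all genes 5.27% were called lower in that comparison. The macrophage markers had a median change of -0.74 in Top2b-deleted cells at 16 h, with 1 of 12 above 0. After PBS their median difference, Top2b-deleted minus wild type, was 0.64, with 11 of 12 above 0. The median change of the members at 16 h was 1.14 in wild type and 0.07 in Top2b-deleted cells. Among 17 lymphocyte markers, those not well above background on any array included Cd3d, Cd3g, Cd8b1 and Ms4a1. In each group 5 or 6 of the 17 were above background on all arrays. At 16 h 5 were tested and 1 was called higher in wild type after doxorubicin, beside 13.7% of all genes, with a median change of -0.10. At 72 h 6 were tested there and 0 were called (limma). Of 9 fibroblast markers tested, 0 rose and 4 fell in wild type at 16 h, beside 14.1% of all genes called lower. Their median change was -0.84 in wild type and -0.73 in Top2b-deleted cells. Of 5 dendritic cell markers tested at 16 h, 0 were called in wild type (limma), with a median of -0.002. The part of other cells in the class I changes was not tested.

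**Figure D4:**
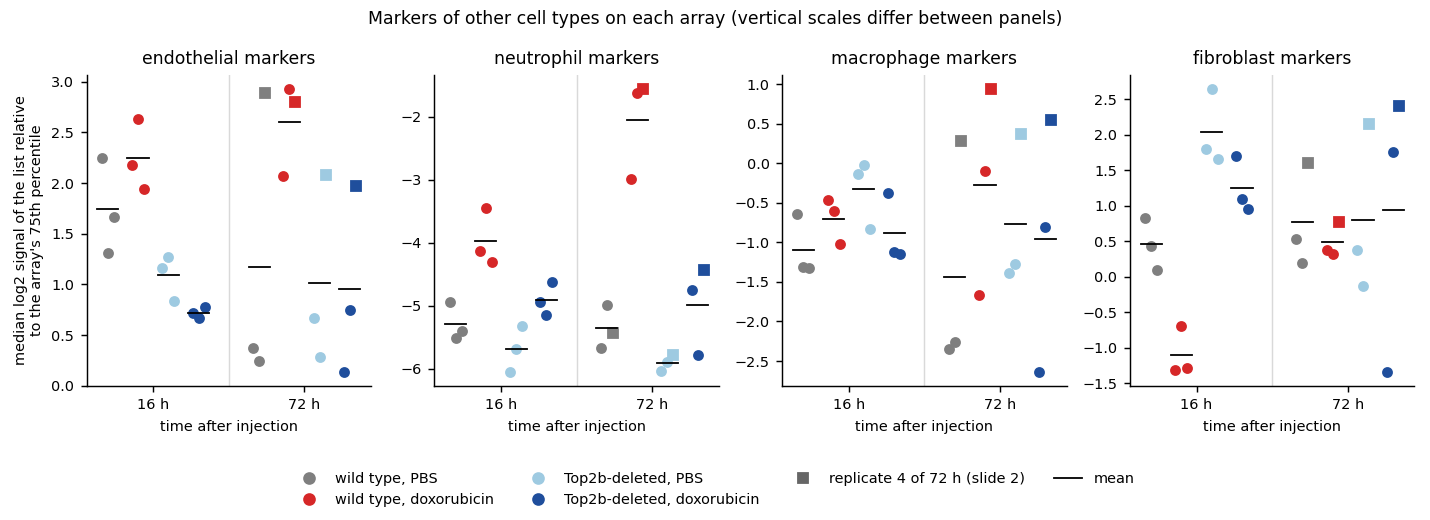
Median log2 level (relative to the array's 75th percentile) of the endothelial, neutrophil, macrophage and fibroblast markers on each array, by time after injection, with genotype and treatment by colour, squares for replicate 4 of 72 h and the group mean as a line. At 72 h replicate 4 is the highest endothelial value of both PBS groups. The neutrophil values of wild-type doxorubicin arrays lie above those of PBS arrays at both times. At 16 h 7 of the 10 neutrophil markers were above background on no wild-type PBS array, and 6 on no wild-type doxorubicin array. The neutrophil median at 16 h therefore rests on probes near background.

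Over the 8 group means, each centred on its time, the mean member profile was followed most closely by LOC547349 (Pearson r = 0.998), Htra3 (0.995), Ly6a (0.995), Ly6c1 (0.992) and Ifitm3 (0.992), of 15452 genes above background on every array. These points share arrays and slides, so r is a description. LOC547349 is listed in RefSeq as a synonym of H2-K1 and is named on the array as a class I family member. In wild type at 16 h it rose by 2.11 ± 0.39 (adjusted p = 0.00308), Ly6a, also known as Sca-1, by 2.03 ± 0.27 (adjusted p = 0.000635), Ly6c1, a related surface antigen, by 1.70 ± 0.26 (adjusted p = 0.00118), Ifitm3, an interferon-induced membrane protein, by 1.78 ± 0.33 (adjusted p = 0.00335) and the serine protease gene Htra3 by 0.77 ± 0.18 (adjusted p = 0.0116). Among the members themselves, r with the member mean was 0.95 to 0.98 for the 6 genes that rose, 0.37 for Tap2, 0.02 for Tapbp, -0.65 for Psmb10 and -0.85 for Psme1.

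The probes are 60-base oligonucleotides, placed by the array files on mm9, whose exon annotation was not used here. Tap1 (chr17:34330854-34330913, plus strand), Psmb9 (chr17:34319174-34319233, minus), Psmb8 (chr17:34337771-34337830, plus) and Tap2 (chr17:34353116-34353175, plus) lie next to each other in the MHC region, with H2-K1 (chr17:34133055-34133114, minus), Tapbp (chr17:34065963-34066022, plus) and H2-D1 (chr17:35403886-35403945, plus) on the same chromosome. B2m (chr2:121978401-121978460, plus), Psmb10 (chr8:108459677-108459736, minus) and Psme1 (chr14:56200194-56200253, plus) lie elsewhere. Of the 7 members on chromosome 17, 5 rose in wild type at 16 h, and of the 3 others B2m did. Tap1, H2-K1 and Psme1 each have 10 spots per array, B2m 2 and the others 1. The probes used share no run of 20 bases with a probe of another gene name. The second H2-K1 probe shares a run of 29 bases with probes of other class I genes; it gave changes of 1.23 at 16 h and 2.08 at 72 h in wild type, close to those of the main probe. The second Psmb9 probe was not well above background on any array.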

How the data were processed

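The authors deposited 1 scanner file per array (Agilent Feature Extraction 10.7.3.1, as their file headers state), with the processed intensity of each spot (background-subtracted and detrended, with no scaling between arrays), raw and local background intensity, and flags. The deposited value table is a linear ratio, the processed signal over the array's median, found by setting its columns beside the scanner files, and was not used for tests.

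Outlier spots (89 to 277 per array) were set to missing, 0 non-control spots were saturated, and 42.9% to 52.6% were well above background. Processed signals were taken to log2 and each array's 75th percentile was subtracted. Spots of a probe were averaged. A probe was kept at a time if well above background on all 3 arrays of 1 group or more, and each gene was represented by the brightest probe kept, which left 18750 genes at 16 h and 19669 at 72 h with all 10 members in both. The 12 arrays of each time were fitted with limma 3.58.1 in R 4.3.3 (8 residual degrees of freedom), with Benjamini-Hochberg adjustment over all genes of that time and a threshold of 0.05. Arrays of 1 group correlated at 0.962 to 0.996 and none were identical. The number of arrays limits the precision. The procedure was tested on simulated data.

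The members and gene lists were chosen with earlier results of these data known. Named genes are the members, at most 4 genes per list with the smallest adjusted p in wild type at 16 h, and the 5 genes most like the mean member profile; some items are not reported here. The alternatives tried were the background correction, normalization, filter, slide, replicate number, Y-linked transcripts, arrays used, variance model and leaving out each array.

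Same-numbered arrays were checked for shared deviations from their group means. The correlations were -0.12 to 0.29 at 16 h (6 of 18 pairs over 0.1) and 0.00 to 0.73 at 72 h (16 of 18 over 0.1), and the rule for pairing (every pair over 0.1) was not met between PBS and doxorubicin of wild type at either time. It was met between those of Top2b-deleted cells at both times and between the PBS groups at 72 h, where the block left the count of called members at 0. Promoter sequences and starts are RefSeq's (GRCm38.p6).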

Additional observations from a re-analysis of the deposited data

Results flagged for a closer look

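The response to doxorubicin at 16 h differed between the genotypes for Tap1 and H2-K1 by the test of the difference itself. For Tap1 the Top2b-deleted response was lower by a log2 difference of -3.51 ± 0.53 (limma, adjusted p = 0.00387). For H2-K1 it was lower by -1.24 ± 0.33 (limma, adjusted p = 0.036), but the call held in only 13 of 25 alternatives and was lost when slide entered the fit (adjusted p = 0.177). Replicate 1 of both doxorubicin groups has a conflicting genotype label. All wild-type arrays of 16 h lay on slide 1 and all Top2b-deleted doxorubicin arrays of that time on slide 2.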

How the results depend on the processing

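No called change turned its direction in any alternative, while some uncalled ones did, such as Psme1 (-0.59 to 0.16) and Tap2 (-0.40 to 0.27) in wild type at 16 h. In wild type at 16 h the 6 calls became 3 when only the groups compared were fitted and 2 without the 4 arrays of conflicting genotype labels, and ranged from 4 to 7 when each of the 6 wild-type arrays was left out. For the difference of responses at 16 h the 2 calls became 1 with no filter on dim probes, with only probes above background on all arrays, with the slide as a block, with all 24 arrays in 1 fit and without the 4 arrays of conflicting labels. They became 4 (34.7% of all genes, against 11.4%) on arrays of 1 Y status, which leaves 1 wild-type doxorubicin array assumed to vary like the other groups, and ranged from 1 to 5 (25.3% of all genes) when each of the 12 arrays was left out. Between genotypes after PBS at 16 h, 1 gene, Tapbp, was called when only the groups compared were fitted, beside 27.4% of all genes. In wild type at 72 h the 1 call became 2 with normexp background correction or with only probes above background on all arrays, 3 with trended robust variance, 5 within slide 1 or on arrays without Y-linked transcripts, and 7 with the slide as a block or with all 24 arrays in 1 fit. It became 0 with quantile normalization, no filter, Y-linked transcripts as a covariate or only the groups compared, and ranged from 0 to 6 when each of the 6 wild-type arrays was left out. Counts were 0 in all alternatives for doxorubicin in Top2b-deleted cells at both times, for the difference of responses at 72 h and for the genotypes after PBS at 72 h. The cause of these shifts was not tested.

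With the replicate block the count in wild type at 72 h rose from 1 to 7 genes (6 higher, 1 lower, beside 16.7% of all genes); it changed no other count by over 1.5 times. At 72 h the block and the slide overlap, since replicate 4 alone lay on slide 2. Tap1 lay near background after PBS, so its fold change is the least certain in size. Where only probes above background on all arrays were kept, Tap1 was not tested, and the counts given for that filter leave it out.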

Other observations

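Although 0 of the 10 members passed the test between the genotypes after PBS at 16 h, some relatives in the wider pathway passed it (limma, adjusted over all genes, 12.5% of which were called). These genes were picked after their values were seen. Of the 18 other class I genes tested, H2-T10 (1.61 ± 0.39, adjusted p = 0.0242), H2-T9 (1.32 ± 0.38, adjusted p = 0.0485) and Mr1, which presents vitamin metabolites (1.0 ± 0.23, adjusted p = 0.0191), were higher in Top2b-deleted cells. Cd1d1, which presents lipids (-1.01 ± 0.28, adjusted p = 0.0385), and Fcgrt (-0.51 ± 0.12, adjusted p = 0.0211) were lower. The proteasome activators Psme4 (-0.86 ± 0.18, adjusted p = 0.0139) and Psme3 (-0.43 ± 0.10, adjusted p = 0.0256) were lower too. Of 24 regulators 4 were higher, Rfxank (1.20 ± 0.20, adjusted p = 0.00398), a subunit of the factor that binds the X box, Relb (0.65 ± 0.12), Atf1 (0.52 ± 0.13) and Rela (0.50 ± 0.11). Ifi30, a thiol reductase of the endosome grouped with the class II genes, was higher (1.62 ± 0.36, adjusted p = 0.0182) and Ifngr2, a chain of the interferon gamma receptor, lower (-0.62 ± 0.16, adjusted p = 0.0298). Of the 15 genes of peptide loading and trimming and the 14 of the constitutive proteasome core none passed there. At 72 h, when 2.15% of all genes were called, Rfxank was again higher (0.95 ± 0.17, adjusted p = 0.0167) and was the 1 gene called in these lists. In the same comparison at 16 h, 6 of 9 fibroblast markers were called higher in Top2b-deleted cells (median 1.16, 9 of 9 above 0) and 2 of 12 endothelial markers lower (median -0.70, 0 of 12 above 0), and their part was not tested. At 16 h the wild-type PBS arrays all lay on slide 1 and Top2b-deleted PBS replicate 3 lay on slide 2, and replicate 3 of both groups has a conflicting genotype label. Ddx3y was well above background on the 3 wild-type PBS arrays and on 0 of the 3 Top2b-deleted ones, so this difference and genotype cannot be told apart there.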
